A study of Mus musculus with 15 samples.

Results

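The junctions described here were listed as joins of a break in 5′Sμ, on chromosome 12, to another chromosome. They were all rows of 13 junction lists whose prey was mapped to a chromosome other than 12, and they numbered 5230 of 53297 rows. The Igh window of chromosome 12 held 46173 of the remaining rows, and the rest of that chromosome held 1894. The lists came from CSR-HTGTS, in which sheared genomic DNA is copied outward from a fixed bait break, so that each read starts in the bait and runs on into the prey to which it was joined.

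The cells were mouse splenic B cells cultured for 96 h with IL-4, LPS and dextran-coupled anti-IgD, which direct switching to IgG1. By the labels, 10 libraries came from C57BL/6 mice, 3 each labelled WT and XLF-/- and 2 each labelled Shld1-/- and Shld1-/-XLF-/-, and 3 more were labelled WT of strain 129s. Shld1-/- and Xlf-/- are germline deletions carried by every cell of the mouse, and the study used mice of 6 to 17 weeks. The labels' target locus field names further Igh alleles, a non-coding Sm-Sa deletion for the WT libraries, an Ia deletion in such cells for Shld1-/- and XLF-/-, and inserted CBEs downstream of Cg2a for Shld1-/-XLF-/-, none of which the study's methods describe for these mice. No marker of the cell type could be examined, because the lists hold DNA junctions only. Of the 10 C57BL/6 libraries, 6 are printed in the study's figures under another genotype than their label, as matched by their Sγ1 junction counts. Each value is therefore given with the label and with the printed genotype, tests follow the labels, and the libraries of a printed genotype are described one by one or by their range.

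During class switch recombination, activation-induced deaminase (AID) starts breaks in the switch regions of Igh, and end joining connects Sμ to a downstream switch region of the same chromosome. SHLD1 is a subunit of shieldin, which acts with 53BP1 to protect broken ends from resection, and XLF is a factor of non-homologous end joining. Breaks in Sμ can also be joined to breaks elsewhere in the genome, which yields a translocation, and AID is known to act at a limited set of transcribed genes outside Igh.

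The bait is shown first because the prey could pair only with the bases it holds. The line below gives the most frequent bait of 150 bases among C57BL/6 reads, which begins at position 114664909 of chromosome 12 in mm9 and runs toward lower coordinates. Capitals mark AGCT, a motif favored by AID and abundant in switch regions, which occurred at 2 places.

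5′Sμ bait: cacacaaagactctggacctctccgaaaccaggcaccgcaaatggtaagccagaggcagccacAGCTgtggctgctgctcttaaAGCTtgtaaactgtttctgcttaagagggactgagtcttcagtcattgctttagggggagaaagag

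Junctions with the longest microhomology (MH) at 5 listed loci follow, each with the last 30 bases of the bait and then the prey. MH is the stretch of bases at the join that fits bait and prey alike, and capitals mark it. They show how such a stretch looks in or within 10 kb of genes that recur among the preys. The Cd83 and Pim1 joins shown lay upstream of the gene start. All joins shown here are the longest at these loci. There, MH over 3 bp was less frequent than at other interchromosomal joins, as given below.

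Il4ra, MH of 10 bp, Shld1-/-XLF-/- replicate 1, GRCm38 chr7:125559368, plus strand: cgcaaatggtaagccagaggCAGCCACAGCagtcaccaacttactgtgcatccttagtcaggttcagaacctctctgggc
Igk, MH of 9 bp, XLF-/- replicate 2, GRCm38 chr6:70459987, plus strand: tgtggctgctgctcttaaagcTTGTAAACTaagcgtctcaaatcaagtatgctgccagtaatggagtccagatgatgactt
Il21r, MH of 9 bp, XLF-/- replicate 2, GRCm38 chr7:125603483, minus strand: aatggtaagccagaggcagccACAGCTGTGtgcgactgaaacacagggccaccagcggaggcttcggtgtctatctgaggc
Cd83, MH of 6 bp, XLF-/- replicate 2, GRCm38 chr13:43782608, minus strand: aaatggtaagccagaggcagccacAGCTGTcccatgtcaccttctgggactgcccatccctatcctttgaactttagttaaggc
Pim1, MH of 4 bp, Shld1-/- replicate 3, GRCm38 chr17:29485741, plus strand: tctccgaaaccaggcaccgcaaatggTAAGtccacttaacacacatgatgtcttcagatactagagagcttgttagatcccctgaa

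A direct join at Il4ra, with no shared base and hence no capitals, is given for contrast. The longest MH outside the listed loci, 22 bp on chromosome 3 within Chmp4c, is given below it. That position was used in 3 libraries.

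Il4ra, direct, WT replicate 2, GRCm38 chr7:125549877 (upstream of the gene start), minus strand: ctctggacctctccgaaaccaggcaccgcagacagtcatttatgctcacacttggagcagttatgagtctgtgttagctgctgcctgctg
Chmp4c, MH of 22 bp, XLF-/- replicate 2, GRCm38 chr3:10405596, minus strand: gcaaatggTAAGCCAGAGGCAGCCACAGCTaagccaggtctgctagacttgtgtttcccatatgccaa

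Not all of the 5230 rows carried such a prey. When the aligned prey was matched to the GRCm38 genome, 3170 preys (60.6%) were placed on the chromosome and strand given in the list at a mapping quality of at least 20. Of the remainder, 1231 had a prey made of 60% or more G, and 829 belonged to neither class. Counted by match instead, 510 preys had none in GRCm38 and 830 matched as listed under that mapping quality. Another 720 matched another chromosome, scaffold or strand, with 63 on chromosome 12 itself. A further 4 G-rich preys were placed and counted as such. A read of the G-rich class is given with its aligned prey in capitals.

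G-rich, XLF-/- replicate 3, listed at position 137458695 of chromosome 5 (mm9), minus strand: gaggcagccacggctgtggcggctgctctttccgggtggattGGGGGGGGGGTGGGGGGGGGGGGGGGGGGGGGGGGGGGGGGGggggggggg

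G-rich preys that were not placed had a median length of 35 bp against 140 bp for placed preys, and 87.4% of them were separated from the bait by an insertion against 4.23% of placed preys. The field for read length was blank in 99.9% of them and in 2.65% of placed rows. In the Igh window only 19 of 46173 rows (0.0411%) were G-rich. Preys of 60% or more G made up 22.2% to 37.7% of interchromosomal rows in the C57BL/6 libraries (median 30.8%) and 7.47% to 10.6% in the 129s libraries. They were also stacked: 33.1% of all G-rich rows lay at a position and strand found in 2 or more libraries, against 0.662% of placed rows. A single position on chromosome 5 was listed in 11 of 13 libraries. The source of the G-rich rows was not tested, and results are given below for all rows and for placed preys.

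Interchromosomal rows made up 4.10% to 17.04% of the rows of the C57BL/6 libraries (median 10.7%) and 9.81% to 18.2% of those of the 129s libraries. No interchromosomal row carried the pipeline's flags for mapping quality or duplication. Placed preys alone made up 1.99% to 10.3% of rows in the C57BL/6 libraries. These shares differed more than 5-fold while the number of placed preys differed less than 2-fold, from 141 to 278 junctions per library. The Igh window, which forms most of the denominator, held 1159 to 8110 rows, a 7.0-fold range.

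In the libraries printed as WT, placed preys made up 3.81% of rows in WT replicate 1 (95% Wilson interval 3.28% to 4.41%), 2.17% in Shld1-/- replicate 2 (1.88% to 2.50%) and 1.99% in XLF-/- replicate 3 (1.70% to 2.32%). In the libraries printed as Shld1-/-, the shares were 9.02% in WT replicate 2, 5.70% in Shld1-/- replicate 3 and 5.89% in Shld1-/-XLF-/- replicate 1. In those printed as Xlf-/-, they were 10.3% in WT replicate 3 and 5.18% in XLF-/- replicate 1. These intervals cover counting error only, since PCR reads without molecular identifiers are not independent molecules. The pair printed as Shld1-/-Xlf-/- had 6.27% in XLF-/- replicate 2 and 8.87% in Shld1-/-XLF-/- replicate 3. The 3 libraries printed as WT thus lay below the other 7, with no overlap. The counts behind these shares did overlap: placed junctions numbered 157 to 185 in the libraries printed as WT and 141 to 278 in the others, whereas Igh rows numbered 4109 to 8110 and 1159 to 3684. Per 100 Igh rows, placed junctions numbered 2.08 to 4.11 in the libraries printed as WT and 5.89 to 12.7 in the other 7.

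**Figure D1:**
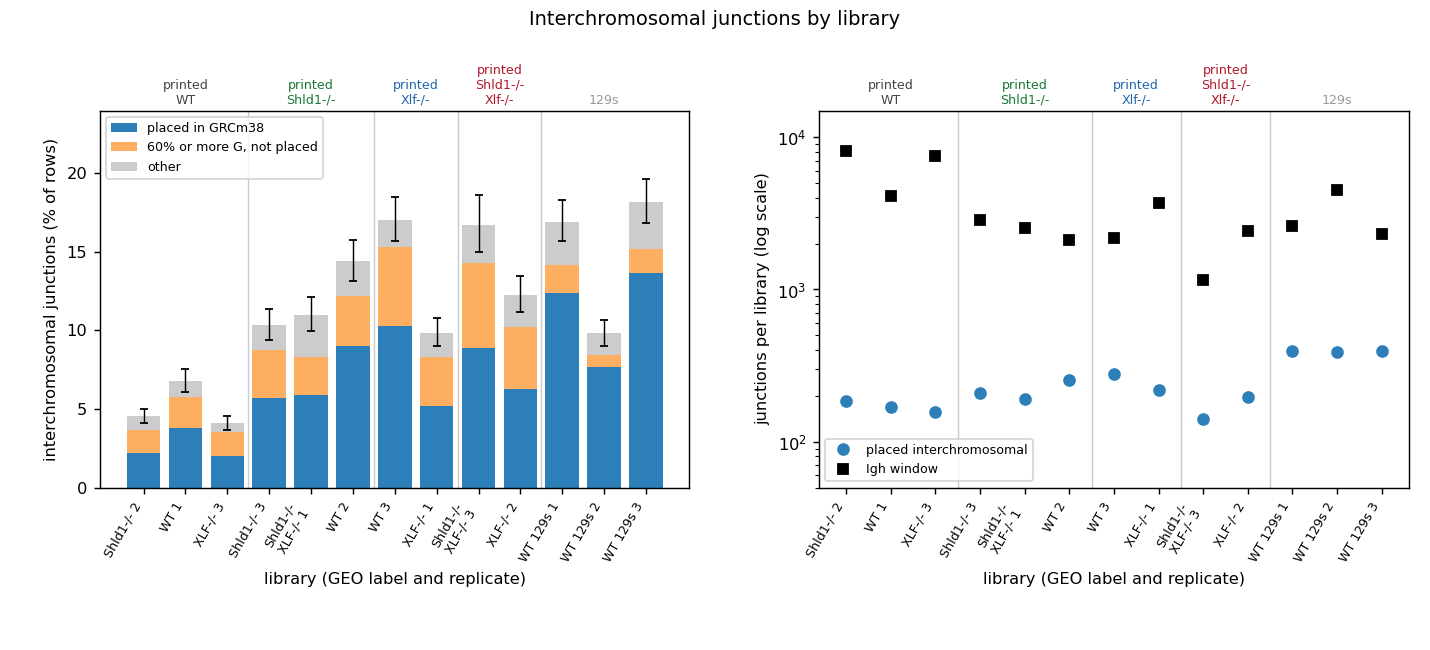
Interchromosomal junctions of each library, named by label and replicate and ordered by the genotype printed for it. Left, percent of all rows, stacked by class of prey, with the 95% Wilson interval of the total (counting error only). Right, number of placed interchromosomal junctions and of Igh junctions on a log scale. Placed junctions stay between 141 and 278 in the C57BL/6 libraries while Igh junctions range from 1159 to 8110.

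The 129s libraries, labelled WT and prepared from another strain with a bait at other coordinates, had placed shares of 12.4%, 7.67% and 13.6% from 393, 387 and 393 junctions. All 3 were above the range of the C57BL/6 libraries printed as WT, and strain, sequencing run and bait position cannot be told apart.

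By label, the share of interchromosomal rows averaged 12.7% ± 5.33 (SD, n = 3) in WT, 7.42% ± 4.09 (n = 2) in Shld1-/-, 8.74% ± 4.20 (n = 3) in XLF-/- and 13.9% ± 4.05 (n = 2) in Shld1-/-XLF-/- libraries. The SHLD1 label effect was -0.10 percentage points (exact permutation within XLF label, two-sided, p = 1) and the XLF label effect was 1.22 points (p = 0.75, exact permutation within SHLD1 label). For placed preys, with the unplaced rows left out of the total, the effects were -0.43 points (p = 0.86) and 0.18 points (p = 0.967) by the same exact permutations. Across 8 such tests, of share, strand, direct joins and MH over 3 bp, the smallest adjusted p was 0.88 over all rows and 0.16 over placed preys, the latter for the SHLD1 label effect on the minus-strand share (-4.83 points, raw p = 0.02, exact permutation). The smallest p these permutations can give is 0.01 for the SHLD1 label. The 120 permutations of the XLF label come in mirror pairs of equal size and opposite sign, so the smallest two-sided p there is 2 of 120. Each label group mixes libraries that are printed under different genotypes, so these label effects cannot be read as effects of SHLD1 or XLF loss. Among Sγ1 joins without an insertion, direct joins made up 30.3% to 31.0% in the libraries printed as WT. In the 3 libraries labelled WT they made up 30.3%, 16.6% and 18.2%.

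The prey strand sets which arm of the other chromosome was joined. The bait read keeps the telomeric side of chromosome 12, and mouse centromeres lie at the low-coordinate end, so a minus-strand prey adds a centromeric piece and a plus-strand prey adds a telomeric piece. Interchromosomal preys used both in near-equal numbers. The minus strand made up 44.8% to 55.7% of rows (median 52.6%) in the C57BL/6 libraries, a mean departure from an even split of 1.98 ± 3.09 points (SD, n = 10, exact sign-flip test, p = 0.0801). Among placed preys it was 45.4% to 54.7%, a departure of 1.38 ± 3.35 points (n = 10, exact sign-flip test, p = 0.221), and in the 129s libraries 48.3% to 49.4%. In the Igh window of the same libraries, where the minus strand marks deletional joins, it was 67.7% to 95.7%. Over all rows the departure was 2.77 points when Shld1-/- replicate 2, the only library under an even split, was left out. The 9 remaining libraries all lay above an even split. The p = 0.00391 (exact sign-flip test) is thus the smallest the test can give for them. It was fixed by the choice of the library removed and is no evidence of a strand preference.

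Interchromosomal joins shared more bases with the bait than Igh joins did. Among joins without an insertion, MH over 3 bp was found in 39.7% to 55.6% of placed interchromosomal joins against 10.5% to 32.1% of Igh joins of the same libraries. The difference was 22.6 ± 6.88 percentage points (SD, n = 10) and positive in 10 of 10 libraries (exact sign-flip test, p = 0.00195, the smallest it can give, adjusted p = 0.00391 over 4 tests). Over all rows it was 19.2 ± 6.75 points (n = 10, exact sign-flip test, p = 0.00195). Here and below, placement in GRCm38 was required of interchromosomal preys only, and Igh rows were not filtered in this way.

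The following values give the interchromosomal share with MH over 3 bp first and the Igh share second. Libraries printed as WT had 43.6% against 10.5% at Igh in WT replicate 1, 39.7% against 11.9% in Shld1-/- replicate 2, and 41.5% against 11.1% in XLF-/- replicate 3. Libraries printed as Shld1-/- had 47.5% against 26.8% in WT replicate 2, 42.4% against 30.1% in Shld1-/- replicate 3, and 45.5% against 29.1% in Shld1-/-XLF-/- replicate 1. For those printed as Xlf-/-, it was 46.1% against 21.5% in WT replicate 3 and 46.2% against 27.7% in XLF-/- replicate 1. The gap was 27.7 to 33.1 points in the libraries printed as WT and 12.3 to 26.2 points in the other 7. Of the pair printed as Shld1-/-Xlf-/-, it was 48% against 32.1% in XLF-/- replicate 2 and 55.6% against 29.3% in Shld1-/-XLF-/- replicate 3. The 129s libraries resembled those printed as WT, at 43.9% to 47.8% against 10.3% to 11.9%.

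Direct joins, with no shared base, made up 5.45% to 13.6% of placed interchromosomal joins in C57BL/6 libraries and 7.16% to 32.5% of Igh joins. The difference from Igh was -7.54 ± 9.85 points (n = 10, exact sign-flip test, p = 0.0352, adjusted p = 0.0469), below 0 in 8 of 10 libraries and above 0 in both libraries printed as Shld1-/-Xlf-/-. Over all rows the difference was -5.22 ± 9.41 points (n = 10, exact sign-flip test, p = 0.123). Direct joins at Igh were 30.6% to 32.5% in the libraries printed as WT and 7.16% to 7.35% in those printed as Shld1-/-Xlf-/-, while among placed members they were 5.45% to 13.6% and 9.14% to 10.4%.

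Insertions depended on which members were counted. Over all rows they were 18.2 ± 5.95 points more frequent than at Igh (n = 10, exact sign-flip test, p = 0.00195), at 26.8% to 46.3% of rows. Among placed preys the difference was -11.7 ± 3.79 points (n = 10, exact sign-flip test, p = 0.00195), at 2.37% to 10.7% against 13.6% to 20.5% at Igh. The sign turned when G-rich and other unplaced rows were left out, a filter not applied to Igh rows. The part of this filter in the difference was not tested. In the 129s libraries, which hold fewer G-rich rows, the difference was negative over all rows too, at -9.27 to -2.89 points.

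**Figure D2:**
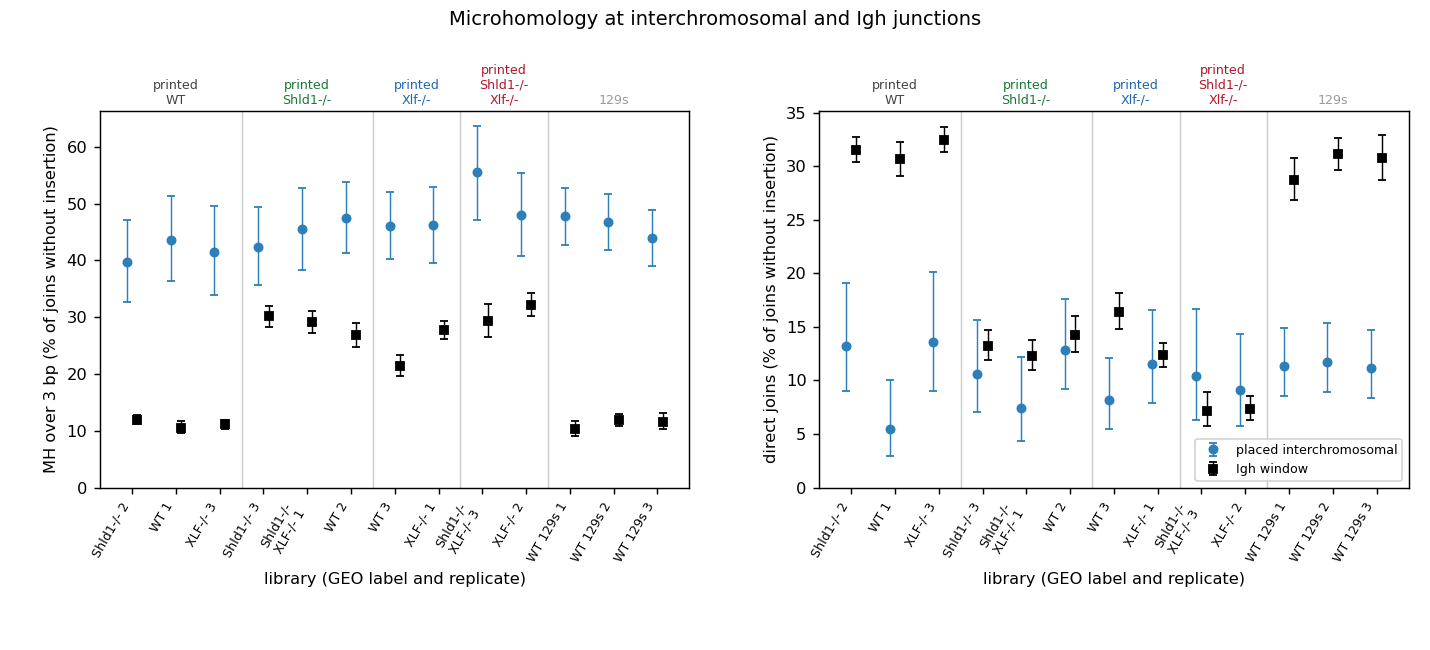
MH of joins without insertion, by library, ordered by printed genotype. Points give the percent of joins with MH over 3 bp (left) and of direct joins (right) for placed interchromosomal junctions and for the Igh window, with 95% Wilson intervals (counting error only). The interchromosomal share with MH over 3 bp lies between 39.7% and 55.6% in the C57BL/6 libraries and above the Igh share in each of them.

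The bases used differed as well. Among MHs of exactly 4 bp in the C57BL/6 libraries, ACCA was the shared sequence in 30 of 296 placed interchromosomal joins (10.1%) and in 22 of 2496 Igh joins (0.881%). AGCT, the switch-region motif, was the shared sequence in 7 (2.36%) and 247 (9.90%). In the 129s libraries, ACCA was used in 21 of 154 interchromosomal joins (13.6%) and in 0 of 309 Igh joins, and AGCT in 1 and 33. The order of both tetramers was thus opposite in the members and in Igh. MHs of 10 bp or more made up 5.68% to 12.2% of placed members without insertion and 0.337% to 1.22% of Igh joins per C57BL/6 library. MHs of 8 bp or more were found in 10.9% of placed members (218 of 1997) and in 1.68% of Igh joins in C57BL/6 libraries, and GGCAGCC, which lies in the bait just before its first AGCT, was part of 96 of 218 (44.0%) at placed members and of 144 of 618 (23.3%) at Igh. In the 129s libraries the order was the other way, with 36 of 152 (23.7%) at placed members and 36 of 103 (35.0%) at Igh. In the C57BL/6 libraries the most used long MH of placed members was GAGGCAGCCACAGC, in 8 junctions.

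The bait was also shorter. A bait alignment of 50 bp or less was found in 34.2% to 39.8% of placed members and in 23.3% to 28.1% of Igh rows of the C57BL/6 libraries, a difference of 10.9 ± 2.06 points (n = 10, positive in 10 of 10, exact sign-flip test, p = 0.00195). This comparison was chosen after the values were seen. In the 129s libraries it was 41.5% to 47.6% against 20.3% to 23.7%.

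The members were spread over all chromosomes tested, in counts that correlated with length. Over 19 chromosomes, counts from the C57BL/6 libraries correlated with length with Pearson's r = 0.70 and Spearman's rho = 0.63 for all rows and with r = 0.63 and rho = 0.60 for placed preys, as a description across chromosomes that share the same libraries. Expected counts used GRCm38 lengths. The Y chromosome and the mitochondrial genome, which were not tested, held 5 rows each, of which 1 on Y was placed. Only chromosome 11 lay above its length share (1 of 19 chromosomes, 5.26%) and only the X chromosome below it (1 of 19, 5.26%) at an adjusted p under 0.05 by exact sign-flip tests over 10 libraries. Among the chromosomes not called, placed preys ranged from 0.76 (chromosome 18) to 1.31 (chromosome 6) of the expected count.

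Chromosome 11 held 152 placed junctions where 96.9 were expected, a mean log2 ratio of 0.61 ± 0.32 (SD, n = 10) that was above 0 in 10 of 10 libraries (exact sign-flip test, adjusted p = 0.0186). It received 5.24% to 9.78% of placed junctions per library against a length share of 4.86%, and 3.05% to 6.20% in the 129s libraries. The X chromosome held 61 junctions where 135.8 were expected, with a mean log2 ratio of -1.44 ± 0.98 (n = 10) that was below 0 in 10 of 10 libraries (exact sign-flip test, adjusted p = 0.0186). Its share was 0.543% to 5.40% per C57BL/6 library and 1.78% to 4.33% in the 129s libraries, against a length share of 6.80%. For all rows the mean log2 ratios were 0.47 ± 0.20 for chromosome 11 and -1.05 ± 0.47 for the X chromosome (n = 10, adjusted p = 0.0186 for both, exact sign-flip test). The number of X chromosomes per cell and the part of each chromosome to which short preys can be mapped were not tested.

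**Figure D3:**
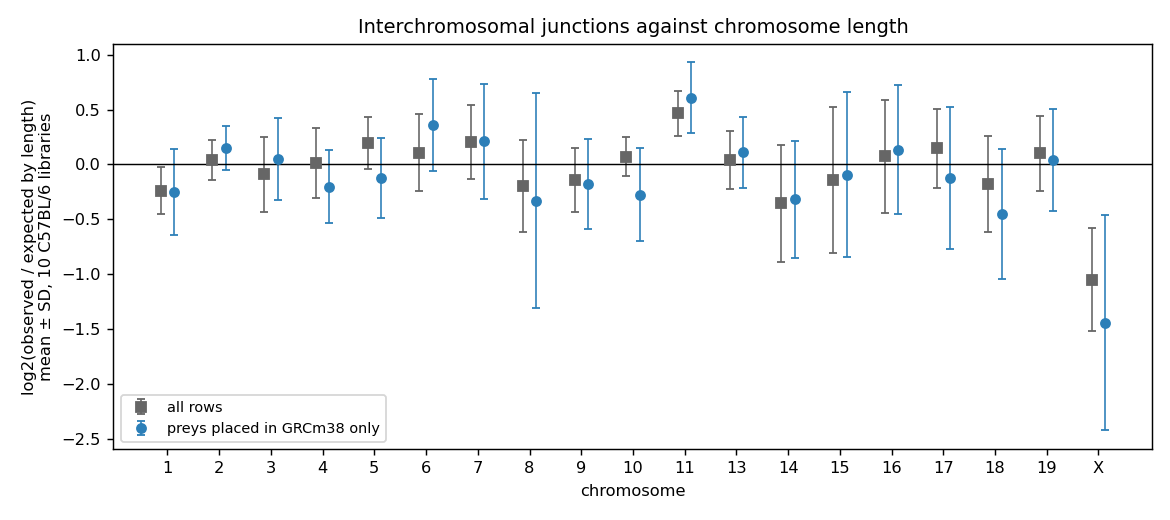
Interchromosomal junctions against chromosome length. Each point is the mean over 10 C57BL/6 libraries of the log2 ratio of observed to expected count, with the SD as bar, for all rows and for placed preys. Chromosome 11 lies above 0 (0.61 for placed preys) and X below (-1.44).

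Most 1-Mb bins with a junction were seen in few libraries. Of 1198 bins that held a placed junction of a C57BL/6 library, 812 were seen in 1 library and 14 in at least 5, and these 14 bins held 193 of 1997 junctions. Over all rows, 79 of 1621 bins were seen in at least 5 libraries. The 10 most shared bins of all rows, by libraries and then by mean share, fell mostly into 2 kinds.

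Bins of the first kind held G-rich preys at few positions. The bin from 137000001 to 138000000 of chromosome 5 (mm9) was seen in 10 of 10 libraries with 36 rows, of which 35 were G-rich and 35 on the minus strand, at 9 positions. The bin from 121000001 on chromosome 10 had 13 G-rich rows of 13, 12 of them on the minus strand, at 5 positions. A bin from 59000001 on chromosome 10 was mixed, with 10 G-rich and 5 placed rows of 15 at 10 positions, and 10 rows on the minus strand. Minus-strand use was not shared by all G-rich bins. The bin ranked 11, from 137000001 on chromosome 7, had 13 G-rich rows of 13 and 0 on the minus strand.

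Bins of the second kind held placed preys on both strands at nearly as many positions as junctions. These were the bin of the Igk constant region on chromosome 6 (mm9 70000001 to 71000000, 22 placed junctions in 9 libraries), that of Il4ra and Il21r on chromosome 7 (132000001 to 133000000, 41 in 9), and that of Clec2d, a C-type lectin gene, on chromosome 6 (129000001 to 130000000, 23 in 9). The others were those of Pim1 on chromosome 17 (29000001 to 30000000, 15 in 8), Grap on chromosome 11 (61000001 to 62000000, 15 in 8), a histone gene cluster on chromosome 13 (23000001 to 24000000, 15 in 8) and Cd83 on chromosome 13 (43000001 to 44000000, 11 in 7). In the bin of Il4ra, 21 of 41 placed junctions were on the minus strand, and in the histone bin 11 of 15. The 41 placed junctions of the Il4ra bin lay at 39 positions, the 23 of the Clec2d bin at 21 and the 22 of the Igk bin at 22. In the histone bin, 15 lay at 13 positions. These bins were thus shared mostly by nearby and not by identical joins. Over the placed preys of all 13 libraries, in shared bins or not, 0.662% lay at a position shared between libraries.

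Loci were then counted from a list of 18 genes or gene clusters known as partners of Igh or as sites of AID activity in B cells. In the C57BL/6 libraries, 106 of 1997 placed junctions (5.31%) lay within 10 kb of a listed locus, and 11 of 18 loci had at least 1. The same intervals held 2 of 1173 placed junctions (0.171%) in the 129s libraries. The share of the genome within all these intervals was not determined, so the percentage expected from length alone is not given. The Igk light chain cluster (GRCm38 chromosome 6, 67555497 to 70726966) had 31 junctions in 9 of 10 libraries, 14 on the minus strand. Its interval is far longer than that of any single listed gene. For scale, chromosome 6 is 149736546 bp long and held 156 placed junctions of these libraries in all. The Igl light chain cluster on chromosome 16 had 5 in 4 libraries, fewer than Il4ra, Pim1, Cd83 or Il21r.

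Il4ra, which encodes the receptor chain for the IL-4 used in the culture, had 29 junctions in 9 libraries, 13 on the minus strand, at 27 positions (GRCm38 chromosome 7, 125552120 to 125579474, plus strand). Of these, 22 were intronic and 3 exonic in the GENCODE vM21 annotation, and 15 lay within 2 kb downstream of the gene start. Per library they numbered 0 in WT replicate 1, 2 in Shld1-/- replicate 2 and 2 in XLF-/- replicate 3, which are printed as WT. They numbered 4 in WT replicate 2, 4 in Shld1-/- replicate 3 and 7 in Shld1-/-XLF-/- replicate 1, printed as Shld1-/-. The libraries printed as Xlf-/- had 1 in WT replicate 3 and 3 in XLF-/- replicate 1, and those printed as Shld1-/-Xlf-/- had 5 in XLF-/- replicate 2 and 1 in Shld1-/-XLF-/- replicate 3, so that the printed genotypes overlapped. The densest 300 bases, all intronic, held 6 junctions from 4 libraries and are shown with AGCT in capitals because that motif is where AID is known to act (GRCm38 chr7:125553794-125554093, plus strand).

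Il4ra intron: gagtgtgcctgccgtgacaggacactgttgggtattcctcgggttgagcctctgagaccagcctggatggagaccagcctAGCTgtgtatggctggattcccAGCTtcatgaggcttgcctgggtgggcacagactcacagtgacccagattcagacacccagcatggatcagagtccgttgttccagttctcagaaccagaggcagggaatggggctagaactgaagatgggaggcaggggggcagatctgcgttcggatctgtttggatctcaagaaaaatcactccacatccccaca

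AGCT occurred at 2 places in these bases. Of 300-base windows centered on placed junctions of the C57BL/6 libraries, 77.9% held AGCT, against 73.5% of 300-base windows centered on genome positions every 10 kb. The motif reads the same on both strands. Around listed loci the share was 74.5%, with a GC content of 48.3% against 41.8% in the genome windows, so most windows of this length held AGCT in either set.

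Pim1, a kinase gene known as a target of hypermutation, had 13 junctions in 7 libraries (GRCm38 chromosome 17, 29490753 to 29496112). Cd83, a surface marker of activated B cells, had 10 in 6 libraries (chromosome 13, 43784775 to 43803132), 6 of them within 2 kb downstream of the gene start. Il21r, the IL-21 receptor gene next to Il4ra, had 9 in 6 libraries (chromosome 7, 125603429 to 125633570), 8 of them on the minus strand. The remaining listed loci had few or none. Pax5, a regulator of B cell identity, had 3, Cd79b, a subunit of the B cell receptor, had 2, Mir142 had 2, and Junb and Pvt1 had 1 each.

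Myc, the classic partner of Igh in mouse plasmacytoma, had 0 of 1997 placed junctions, which allows a share of up to 0.150% at this depth, and the same held for Bcl6, Gas5, Birc3, Rhoh, Bcl11a and Ccnd2. Clec2d (chromosome 6, 129180615 to 129186534) had 21 junctions in 9 libraries and Grap, which encodes an adaptor protein (chromosome 11, 61653265 to 61672784), had 13 in 8 libraries, although neither was listed; both were named through their bins. Fewer cells carrying a join and fewer joins recovered per cell cannot be told apart in these bulk libraries.

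**Figure D4:**
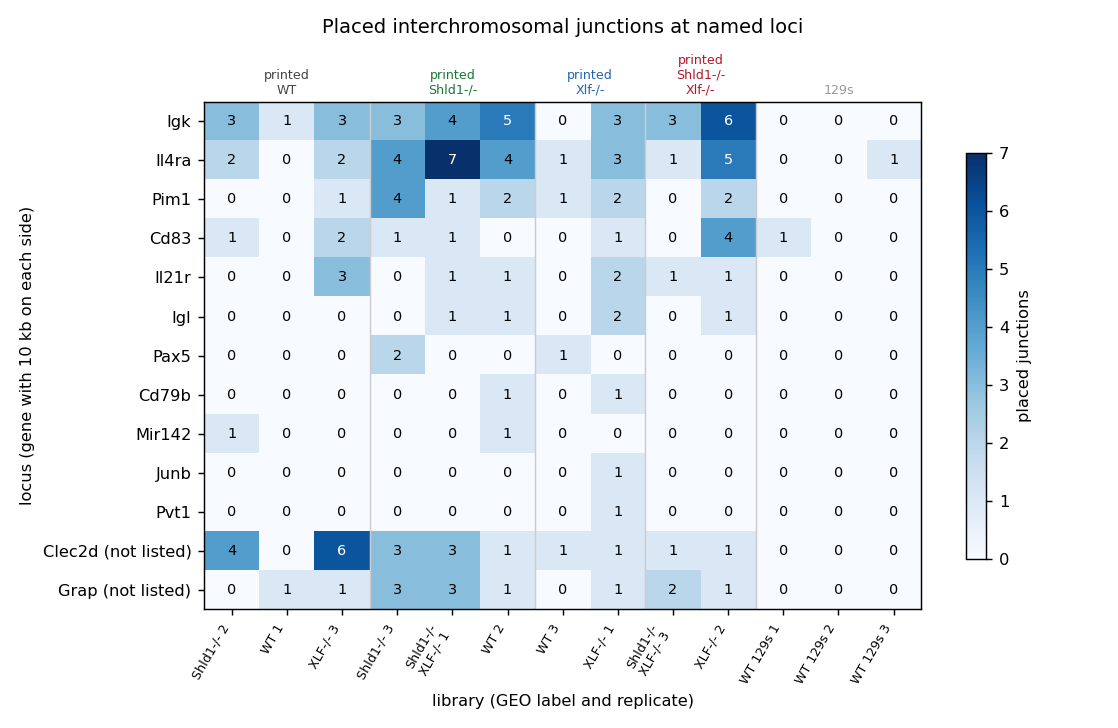
Placed interchromosomal junctions within 10 kb of each locus, by library, ordered by printed genotype. Numbers and shades give junction counts. Il4ra and Igk have junctions in 9 of the 10 C57BL/6 libraries, and the 3 strain 129s libraries have 2 junctions in all at the listed loci.

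The listed loci took 0.592% to 9.69% of the placed junctions of a C57BL/6 library. In the libraries printed as WT there were 1 of 169 in WT replicate 1, 7 of 185 in Shld1-/- replicate 2 and 11 of 157 in XLF-/- replicate 3, and in those printed as Shld1-/- there were 15 of 254, 14 of 210 and 15 of 190. Those printed as Xlf-/- had 3 of 278 in WT replicate 3 and 16 of 217 in XLF-/- replicate 1, and in those printed as Shld1-/-Xlf-/- there were 19 of 196 and 5 of 141. Per 1000 rows this was 0.225 to 1.39 in the libraries printed as WT, 3.80 to 5.33 in those printed as Shld1-/-, 1.11 to 3.82 in those printed as Xlf-/- and 3.14 to 6.08 in those printed as Shld1-/-Xlf-/-. The libraries printed as WT overlapped with those printed as Xlf-/- and lay below the others per 1000 rows, but not per placed junction. In the 129s libraries, 2 of 1173 placed junctions (0.171%) lay at listed loci, although these libraries had the most placed junctions. WT replicates 1 and 3 of C57BL/6, with 1 and 3 junctions, were nearest to them.

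Joins at the listed loci used less MH than joins elsewhere. In the pooled C57BL/6 libraries, MH over 3 bp was found in 22 of 98 joins without insertion at listed loci (22.4%, Wilson interval 15.3% to 31.7%) and in 838 of 1791 elsewhere (46.8%, 44.5% to 49.1%). These intervals cover counting error only and leave out the spread between libraries. At listed loci the share ran from 0% to 40% by library. By library the difference was -29.0 ± 13.9 points (n = 10), negative in 10 of 10 (exact sign-flip test, p = 0.00195, adjusted p = 0.00391 over 2 tests, a comparison chosen after the values were seen), with as few as 1 join at listed loci in a library. Direct joins differed by 10.9 ± 17.1 points (n = 10, exact sign-flip test, p = 0.084).

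Direct joins at listed loci were few in each library and are described without a test. Of joins without insertion there, 0 of 1 in WT replicate 1, 3 of 7 in Shld1-/- replicate 2 and 4 of 10 in XLF-/- replicate 3, all printed as WT, were direct. Among the libraries printed as Shld1-/-, 5 of 13 in WT replicate 2, 3 of 13 in Shld1-/- replicate 3 and 1 of 13 in Shld1-/-XLF-/- replicate 1 were direct. The pair printed as Xlf-/- had 0 of 3 in WT replicate 3 and 2 of 15 in XLF-/- replicate 1, and the pair printed as Shld1-/-Xlf-/- had 0 of 18 in XLF-/- replicate 2 and 2 of 5 in Shld1-/-XLF-/- replicate 3. Libraries of the same printed genotype thus differed widely, and all printed genotypes overlapped. Elsewhere, direct joins made up 5.49% to 11.98% in the libraries printed as WT, 7.36% to 11.4% in those printed as Shld1-/-, 8.27% to 11.4% in those printed as Xlf-/- and 9.23% to 10.2% in those printed as Shld1-/-Xlf-/-.

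Gene starts held more members than their share of the genome. Positions within 2 kb of the start of a protein-coding, lincRNA or antisense gene made up 10.3% ± 2.44 (SD, n = 10) of placed junctions in the C57BL/6 libraries, from 6.12% to 13.6%, against 4.30% of genome positions, and the share was above the genome value in 10 of 10 libraries. In the 129s libraries it was 6.20% to 6.36%. Without the listed loci it was 8.73% in the pooled C57BL/6 libraries. Exons held 9.24% ± 1.65 (n = 10) against 5.03% of genome positions and introns 48.5% ± 3.33 against 42.5%, while 42.3% ± 3.28 lay outside genes against 52.5%. Sequence around members was slightly richer in G and C, at 41.9% to 44.6% per library against 41.8%. Genome positions were not limited to those where a prey can be mapped, and its part in these differences was not tested.

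**Figure D5:**
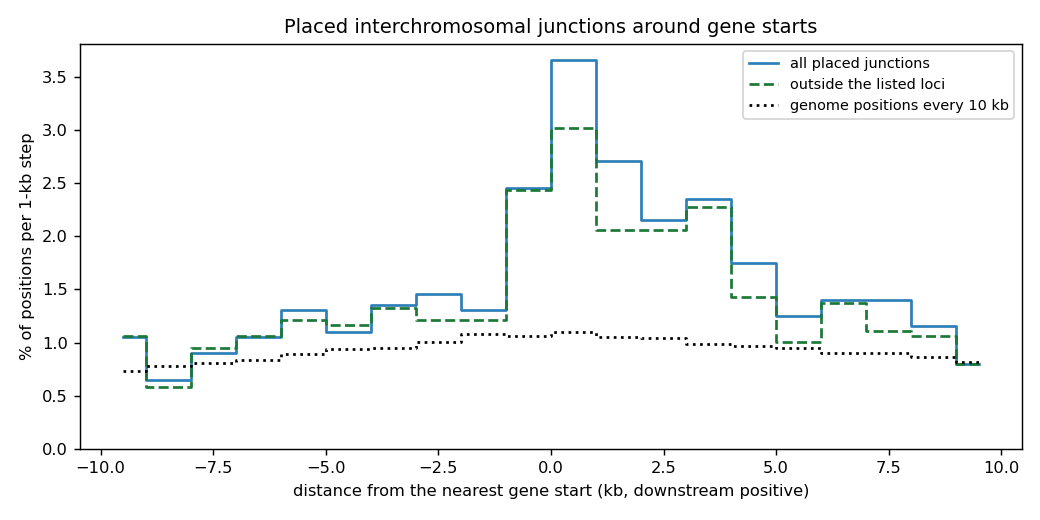
Placed interchromosomal junctions of the C57BL/6 libraries around gene starts. Lines give the percent of positions in each 1-kb step of distance from the nearest gene start, for all placed junctions, for those outside the listed loci and for genome positions every 10 kb. The step just downstream of the start holds 3.66% of placed junctions and 1.10% of genome positions.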

How the data were processed

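Junction lists of 13 CSR-HTGTS libraries were analysed. The authors made them with their HTGTS pipeline (Bowtie2) and deposited 1 row per junction with prey and bait positions, strands, read coordinates, filter flags and the read, without normalization. The study's methods give mm9 for the C57BL/6 libraries. For the 129s libraries mm9 is named only in the submitters' processing notes, and their bait lies at other coordinates. Their placed and locus counts carry that doubt. Another 2 libraries, with MH lengths only, were not used here. The lists held 1590 to 8531 rows per library. Groups followed the labels. The study describes 3 independent mice per C57BL/6 genotype, but which library came from which mouse is not given in the sources used here. The members and gene lists were chosen with earlier results of these data known.

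MH is the last bait base minus the first prey base on the read, plus 1; negative values are insertions, left out of MH shares. Preys were matched to GRCm38.p6 with minimap2 2.31 (k = 15, w = 5, m = 20, s = 25). A prey was placed at the same chromosome and strand, a mapping quality of at least 20 and under 10 Mb from its mm9 coordinate. Coordinates of bins are mm9 and those of genes GRCm38 (GENCODE vM21); none was converted. Shares within libraries were tested with exact sign-flip tests over the 10 C57BL/6 libraries, and label effects with exact permutations, all two-sided with Benjamini-Hochberg adjustment. Chromosome ratios are log2((observed + 0.5)/(expected + 0.5)). Named bins were the 10 seen in most libraries, then by mean share. Numeric steps were tested on simulated data. Computation used Python 3.11.15, scipy 1.17.1 and pandas 2.3.3. Alternatives were other row sets, denominators, bin sizes, pseudocount and each library left out; G-rich and placed row sets and the replicate block were added after the data were seen. The comparisons of listed loci with other positions, of bait length, MH sequences and gene starts, and the genes outside the list, were likewise chosen after the values were seen.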

Additional observations from a re-analysis of the deposited data

Results flagged for a closer look

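Insertions were compared between interchromosomal and Igh joins, and over all rows this difference was 7.50 percentage points larger in libraries labelled XLF-deficient than in the others (exact permutation within SHLD1 label, p = 0.0333, adjusted p = 0.20 over 6 tests), a result that failed the correction. With placed preys only it was 3.44 points (p = 0.0833, adjusted p = 0.50, exact permutation).

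The 129s libraries, which enter no test, had a placed interchromosomal share of 11.2% ± 3.15 of rows (SD, n = 3), against 7.71% ± 3.44 (n = 3) in the C57BL/6 libraries labelled WT. The groups overlapped, since 129s replicate 2 had 7.67% and WT replicates 2 and 3 of C57BL/6 had 9.02% and 10.3%. These last libraries are printed as Shld1-/- and Xlf-/-.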

How the results depend on the processing

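The MH over 3 bp difference kept its direction and stayed past the threshold in every alternative run (all rows 17.9 to 20.1 points with 1 library left out). The listed-locus and bait-length differences did so with each library left out. Each of these differences had the same sign in 10 of 10 libraries. With 1 library left out, the direction and the p = 0.00391 (exact sign-flip test) were thus fixed in advance and add no support. The number of chromosomes called was 2 to 3 of 19 in the alternatives, 3 without WT replicate 1, XLF-/- replicate 3 or Shld1-/-XLF-/- replicate 3. Chromosomes 11 and X were the ones called over all rows, without G-rich preys and with placed preys, and which were called in the other alternatives was not tabulated. The insertion difference of 18.2 points turned to -5.75 with preys of at least 50 bp, -3.74 without preys of 60% or more G and -11.7 with placed preys only; these alternatives remove rows with short, inserted preys, and with 1 library left out it was 17.4 to 19.4. The direct-join difference of -5.22 had an unadjusted p under 0.05 with placed preys (-7.54, p = 0.0352, exact sign-flip test) and with insertions in the denominator (-6.53, p = 0.0176), and ranged from -6.74 to -3.45 with 1 library left out. The strand departure ranged from 1.56 to 2.77, the latter without Shld1-/- replicate 2. Bins shared by at least 5 libraries numbered 129 at 2 Mb, 23 without G-rich preys and 14 with placed preys, against 79. The SHLD1 label effect turned to 0.58 per 100 Igh rows and ranged from -1.59 to 1.35 with 1 library left out, above 0 without WT 2, WT 3, Shld1-/- 2, XLF-/- 1, XLF-/- 2 or Shld1-/-XLF-/- 1. The XLF label effect ranged from -0.27 to 2.67, below 0 without WT 1, Shld1-/- 2 or Shld1-/-XLF-/- 3. Neither label effect on the interchromosomal share passed the threshold in the alternatives run for it. The causes were not tested. Replicate numbers, which come from the labels, were not taken to pair the samples. Of 12 same-number pairs, 4 had deviations of chromosome shares correlated over 0.1 (r from -0.35 to 0.56). This check cannot exclude a pairing, since labels and printed genotypes differ. With the replicate block the label effects were -0.49 (p = 0.97) and 0.45 (p = 0.95, exact permutation). Depth limits single loci, since 3 placed junctions are 0.150% of those of C57BL/6.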
